A study of Homo sapiens with 4 samples.

Results

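RAB GTPases are small switch proteins of membrane traffic. The genes described here were all rows whose symbol was *RAB* followed by a number and, where present, a single letter from A to D. This rule found 50 of the 16811 genes measured, and it used no expression value. RNA-seq was made from MCF12A cells, a non-tumorigenic mammary epithelial line that the sample source label nevertheless calls a breast cancer line. The 2 edited libraries came from cells in which CRISPR/Cas9 with paired guide RNAs had removed the p2 promoter of the long non-coding RNA gene *C1orf132*, labelled C1orf132 KO, and the 2 wild-type libraries came from unedited MCF12A cells. Edited lines were grown from sorted single cells, so edited replicates may share 1 clone, and which colony was sequenced is not given in the sources used here. Both groups were kept in DMEM/F12 with horse serum, EGF, hydrocortisone, cholera toxin, insulin and antibiotics, and no further agent or time point was labelled. The study calls the libraries of a group biological replicates. The p-values of limma, the test used below, rest on the spread between 2 libraries per group. That spread is moderated by the spread of other genes. The targeted gene was not analysed here, and the groups therefore rest on their labels.

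A RAB protein is active when bound to GTP and inactive when bound to GDP. Exchange factors load it with GTP, GTPase-activating proteins switch it off, and the active form recruits effectors that tether, move or fuse vesicles. A lipid tail added by the RAB escort and geranylgeranyl transferase machinery holds it on its membrane, and GDP dissociation inhibitors take it back to the cytosol. Most RABs are made in nearly all cells. A few are found mainly in epithelia or secretory cells, among them *RAB25*, a RAB11 relative of the apical recycling endosome, *RAB27B*, which docks secretory granules and exosome-bearing vesicles, and *RAB38*, which with *RAB32* carries cargo to lysosome-related organelles such as melanosomes and lamellar bodies.

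The RAB genes that passed the test (adjusted p below 0.05 in limma) were *RAB25* and *RAB38*, both lower in edited cells. No RAB gene passed it as higher. *RAB25* fell from a level close to that of *RAB11A* to under 1% of wild-type, and *RAB38* to 12.4% of wild-type. The third gene of the epithelial list, *RAB27B*, was low in every library and its groups overlapped. None of 19 ubiquitously made RAB genes passed the test. Values are the deposited expression values. Their normalization is not given in the sources used here, and they were read as scaled for transcript length from the steps between low values, so levels set side by side between genes rest on that reading. A gene was called at an adjusted p below 0.05 in limma, on log2(value + 1), and the test took in every gene averaging 10 or more. Of the 50 RAB genes, 38 were tested and 12 lay under that level. Of the 38 tested, 2 were called, both lower, and 36 were not. The background was 7.09% of all 9590 tested genes called in either direction and 4.20% called lower, so the number of RAB genes called was near that of genes at large. At an unadjusted p below 0.05 there were 10 of the 38, beside 32.3% of all tested genes. The 12 genes under the level were read from the same fit over all 16811 genes, in which 4.73% of genes and none of these 12 were called, with 2 of them (*RAB20* and *RAB36*) at an unadjusted p below 0.05, beside 29.2% of all genes in that fit.

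**Figure D1:**
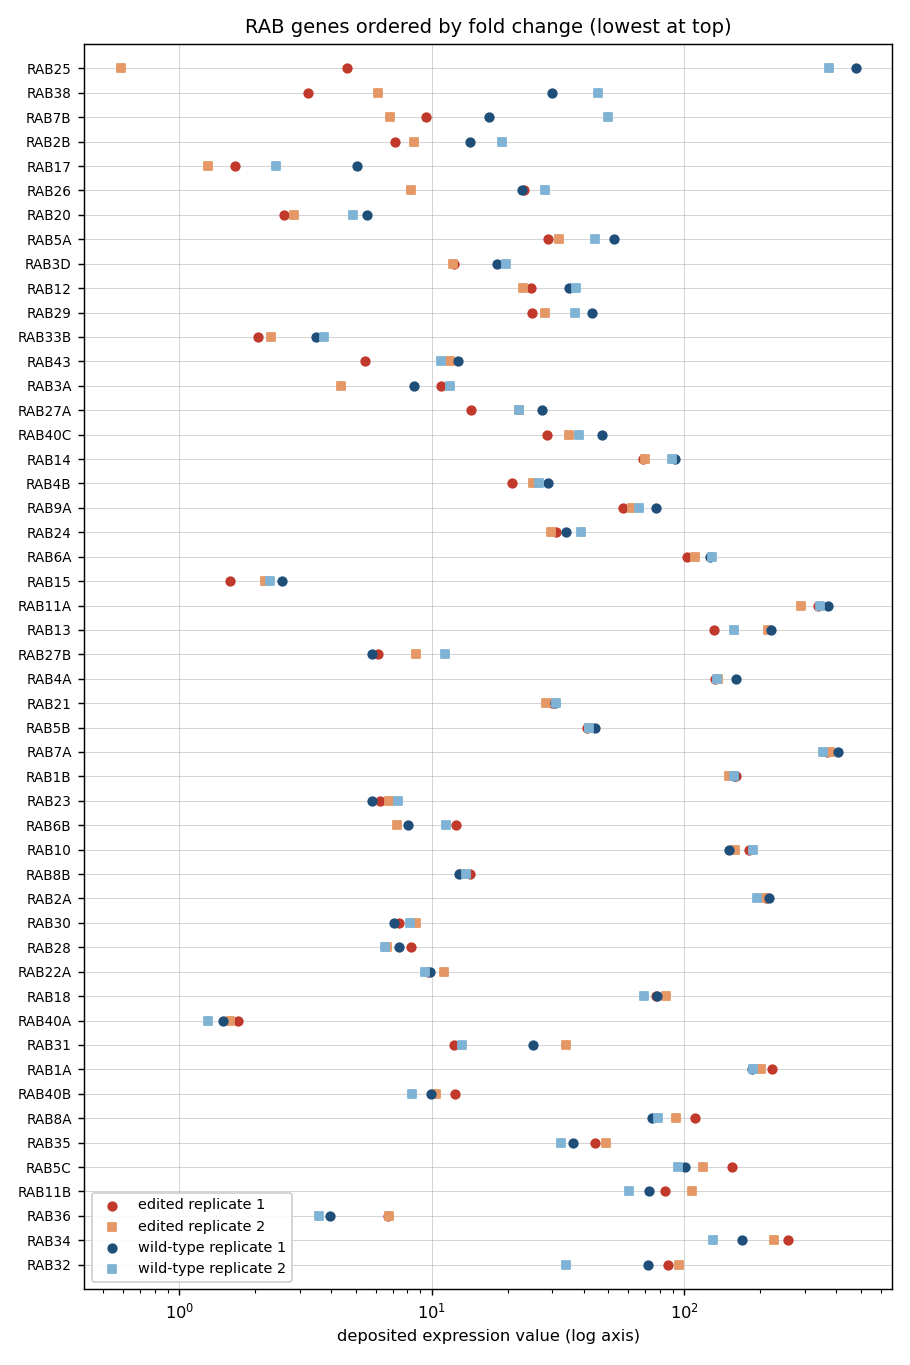
Deposited expression values of the 50 RAB genes on a log axis, 1 point per library, ordered by the fitted fold change between edited (red and orange) and wild-type (dark and light blue) cells. The values of *RAB25* in edited cells, 4.62 and 0.589, lie far left of 477 and 374 in wild-type cells, while the points of most other genes lie close together.

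The promoters of *RAB25*, of its relative *RAB11A* and of *RAB17*, another epithelial RAB, are shown because the levels of *RAB25* and *RAB11A* parted between the groups and because *RAB17* holds the motif below more often than any other RAB promoter found. They come from RefSeq on GRCh38.p14 and run from 250 bases before to 50 bases after the annotated start, read along the gene's strand. Capitals mark CACCTG or its reverse complement CAGGTG, a form of the E-box that zinc finger repressors of epithelial genes such as SNAI1 and ZEB1 are known to bind. The *RAB25* window is chr1:156060910-156061209 (plus strand), the *RAB17* window chr2:237590685-237590984 (minus strand) and the *RAB11A* window chr15:65869241-65869540 (plus strand).
RAB25: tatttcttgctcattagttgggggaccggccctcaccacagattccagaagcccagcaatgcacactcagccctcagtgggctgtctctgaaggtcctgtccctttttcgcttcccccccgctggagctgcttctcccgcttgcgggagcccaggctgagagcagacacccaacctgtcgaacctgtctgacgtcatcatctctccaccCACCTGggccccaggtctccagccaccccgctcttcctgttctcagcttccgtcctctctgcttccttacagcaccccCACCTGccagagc
RAB17: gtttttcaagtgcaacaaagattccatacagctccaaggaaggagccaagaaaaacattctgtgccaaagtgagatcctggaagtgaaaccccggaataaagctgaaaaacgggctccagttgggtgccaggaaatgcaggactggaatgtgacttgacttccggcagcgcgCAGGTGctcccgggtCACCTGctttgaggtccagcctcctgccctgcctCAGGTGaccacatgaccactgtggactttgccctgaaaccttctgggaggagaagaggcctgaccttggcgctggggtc
RAB11A: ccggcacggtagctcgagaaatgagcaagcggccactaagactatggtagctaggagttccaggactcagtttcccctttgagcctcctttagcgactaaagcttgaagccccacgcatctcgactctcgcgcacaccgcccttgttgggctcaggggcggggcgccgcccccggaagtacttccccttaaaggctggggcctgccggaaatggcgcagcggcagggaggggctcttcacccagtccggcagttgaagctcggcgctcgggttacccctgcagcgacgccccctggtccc

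The *RAB25* promoter held 2 matches, whose first bases lay at −41 and 37 relative to the start, the *RAB17* promoter held 3, at −78, −63 and −29, and the *RAB11A* promoter held none. *RAB38* had no promoter entry and is not covered here. Promoter entries were found for 41 of the 50 RAB genes, 62 promoters in all, of which 10 (16.1%) held the motif. Among all 35116 promoters of the same length 20.6% held it, 3.49% held at least 2 matches and 0.635% at least 3. The *RAB25* window held 9 CpG dinucleotides, below the range of 14 to 39 (median 29) over 19 promoters of 17 ubiquitous genes, 5 of which held the motif. Its GC content of 60.7% lay within their range of 54.0% to 80.3% (median 68.3%). The median of all promoters was 14 CpG and 58.7% GC. *RAB17* held 7 CpG and *RAB11A* 23, and the 2 *RAB27B* promoters held 6 and 17 and no motif match. A match is a stretch of letters and says nothing of binding in these cells.

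*RAB25* lies on chr1:156061160-156070504 (GRCh38.p14), with no other annotated gene over it. In the wild-type libraries it had values of 477 (replicate 1) and 374 (replicate 2), and in the edited libraries 4.62 (replicate 1) and 0.589 (replicate 2). Both wild-type libraries were high and both edited libraries were low. The groups did not overlap, as was so for 61.6% of all genes. The wild-type mean of 425 ± 73.0 (SD, n = 2) stood against 2.60 ± 2.85 (SD, n = 2) after editing, a 163-fold difference that left 0.612% of the wild-type mean. The fitted log2 fold change was −7.15 (SE 0.58, 95% interval −8.58 to −5.71, adjusted p = 0.00653 in limma). Of the 9590 tested genes 3 had a lower fold change. In the order of all genes within a library, *RAB25* stood at the 97.6 and 97.3 percentile in wild-type cells and at the 32.7 and 4.06 percentile in edited cells. The edited replicates differed from each other 7.85-fold, the widest replicate gap of any RAB gene. With the length of its shortest and longest annotated transcript, the value in edited replicate 2 corresponds to about 3.51 to 7.17 reads. That in edited replicate 1 corresponds to about 24.6 to 50.2 reads. The value in edited replicate 2 therefore rests on few reads. Without wild-type replicate 1 the adjusted p was 0.0637 and without wild-type replicate 2 it was 0.0969, at log2 fold changes of −6.97 and −7.32. In these smaller fits only 16 and 4 of all genes were called.

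The other RAB11 genes did not follow *RAB25*. *RAB11A*, the common recycling endosome RAB, had values of 337, 290, 371 and 345 in edited 1, edited 2, wild-type 1 and wild-type 2, an order of libraries kept below wherever 4 values are given. *RAB11B*, its close copy, had 83.9, 108, 72.8 and 60.4. The fitted fold change was −0.19 (95% interval −0.70 to 0.32, adjusted p = 0.545) for *RAB11A* and 0.51 (−0.03 to 1.05, adjusted p = 0.170) for *RAB11B*, so neither passed. The interval of *RAB25* lay wholly below both. Per transcript length, *RAB25* made up 51.8% and 48.0% of the summed level of the 3 genes in wild-type libraries and 1.09% and 0.148% in edited libraries. The sum was 921 and 779 in wild-type cells and 426 and 398 in edited cells. The ratio of *RAB25* to *RAB11A* was 0.0137 and 0.00203 in edited against 1.29 and 1.08 in wild-type cells. An exact two-sided permutation test of this ratio, on log2(value + 1), gave p = 0.333, the smallest that 2 against 2 libraries allow.

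**Figure D2:**
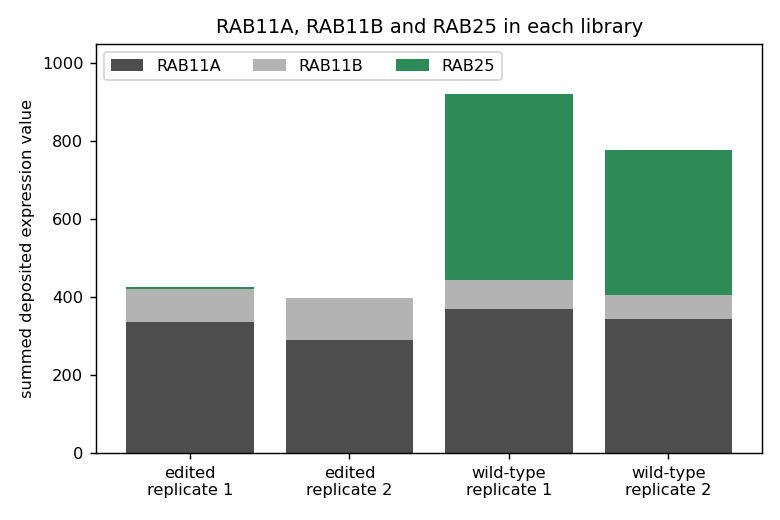
Summed deposited expression values of *RAB11A* (dark grey), *RAB11B* (light grey) and *RAB25* (green) in each library, as stacked bars from 0. The green block is 477 and 374 high in the wild-type libraries and 4.62 and 0.589 in the edited libraries, while the grey blocks are of like height in all 4.

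*RAB38* (chr11:87803715-88175443) had values of 3.24, 6.15, 29.8 and 45.6. All edited values were below all wild-type values, at 4.70 ± 2.06 (SD, n = 2) against 37.7 ± 11.2 (SD, n = 2), 8.04-fold lower. Groups that did not overlap were found in 61.6% of all genes. The fitted log2 fold change of *RAB38* was −2.78 (SE 0.35, 95% interval −3.65 to −1.92, adjusted p = 0.0192 in limma), and 109 tested genes had a lower one. Its annotated span also holds *LOC107984361* and *MTCYBP41*, and the library kit does not mark strand, so reads from overlapping exons cannot be told apart. Without wild-type replicate 1 its adjusted p was 0.0726 and without wild-type replicate 2 it was 0.162, with log2 fold changes of −3.08 and −2.49. *RAB32*, the nearest relative of *RAB38*, lay on the other side. Its values were 86.4, 95.6, 71.7 and 34.0, higher in both edited libraries, but its fold change of 0.87 (−0.03 to 1.76, adjusted p = 0.164) did not pass and the wild-type replicates differed 2.11-fold. The intervals of the 2 genes did not overlap. *RAB38* made up 29.4% and 57.3% of their summed level in wild-type and 3.61% and 6.04% in edited libraries, while the sum itself was 89.7 and 102 in edited and 102 and 79.6 in wild-type cells. The exact permutation p of their ratio was again 0.333, the smallest possible. Among the regulators and effectors of RAB32 and RAB38, *HPS1* and *HPS4*, the exchange factor subunits, and *ANKRD27*, an effector, none of 3 was called. Their fold changes were −0.32 to −0.12 and none was at an unadjusted p below 0.05. Over all tested genes these shares were 7.09% and 32.3%.

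*RAB27B* (chr18:54717857-54895516) had values of 6.14, 8.69, 5.78 and 11.3. The edited values lay between the wild-type values. Its means were 7.42 ± 1.80 (SD, n = 2) and 8.53 ± 3.90 (SD, n = 2), and the fold change in the fit over all genes was −0.13 (SE 0.36, 95% interval −1.04 to 0.77, adjusted p = 0.839 in limma). Its relative *RAB27A*, the granule-docking RAB of many secretory cells, had 14.3, 22.2, 27.4 and 22.1, with a fold change of −0.44 (−1.10 to 0.21, adjusted p = 0.288). *RAB27B* made up 30.1% and 28.1% of the pair in edited and 17.4% and 33.8% in wild-type libraries, with an exact permutation p of 1. The interval of *RAB27B* lay wholly above those of *RAB25* and *RAB38*, so the 3 genes of the epithelial list did not move alike. Their mean of log2(value + 1) was 2.47 and 2.26 in edited and 5.54 and 5.90 in wild-type libraries.

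**Figure D3:**
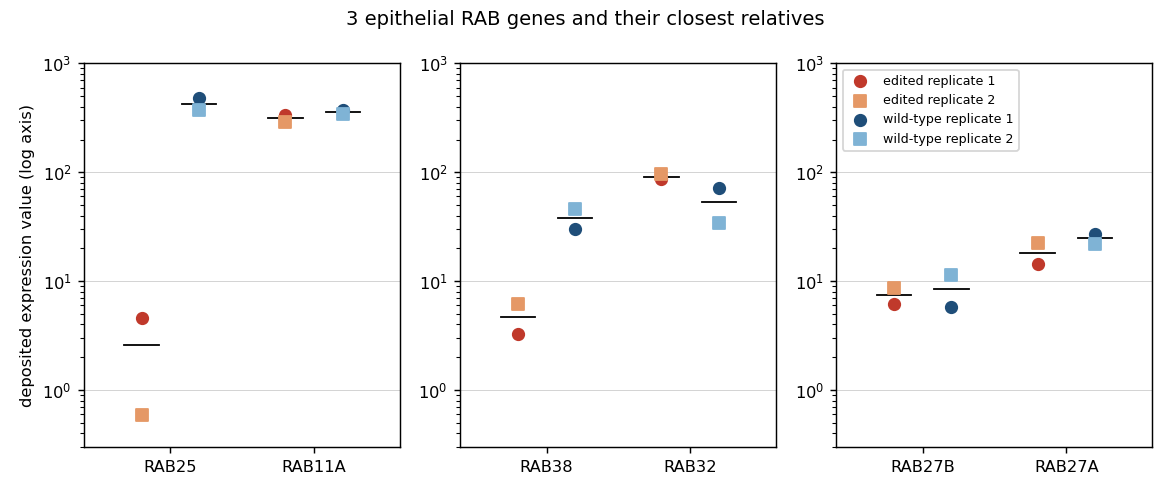
Deposited expression values on a log axis for *RAB25*, *RAB38* and *RAB27B*, each beside its closest relative, with edited libraries at the left and wild-type libraries at the right of each gene and a bar at the group mean. *RAB25* and *RAB38* separate between the groups, at means of 2.60 against 425 and 4.70 against 37.7, while the *RAB27B* points overlap.

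All 19 ubiquitous RAB genes were tested, 0 were called in limma and 2 (*RAB5A* and *RAB35*) were at an unadjusted p below 0.05. Over all tested genes these shares were 7.09% and 32.3%. Their fold changes ran from −0.66 to 0.51, 10 negative and 9 positive, with a median of −0.02 beside 0.09 over all tested genes. The mean of log2(value + 1) was 6.52, 6.52, 6.55 and 6.47 in the 4 libraries. The highest was *RAB7A*, the late endosome and lysosome RAB, at 367, 378, 406 and 353, and the lowest *RAB22A*, an early endosome RAB, at 9.62, 11.1, 9.87 and 9.39. In both the groups overlapped. *RAB1B* (160, 151, 158 and 157) and *RAB2A* (211, 211, 216 and 193), which act between the endoplasmic reticulum and the Golgi, likewise overlapped between the groups. After scaling to equal library totals the median of all tested genes moved from 0.09 to −0.03 and that of the ubiquitous genes from −0.02 to −0.14, so these small differences depend on the scaling.

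By role, the RAB genes of the endoplasmic reticulum and Golgi numbered 11. Of these 7 were tested and none called, beside 7.09% of all tested genes called. The lowest was *RAB2B*, a Golgi RAB, at 7.12, 8.50, 14.2 and 19.0 (fold change −0.99, adjusted p = 0.0719). It lies on chromosome 14, whose 312 tested genes had a median fold change of −0.46, lower than the 0.09 of all tested genes. Whether its chromosome bears on the level of *RAB2B* was not tested. *RAB36* had the highest fold change here, with 6.69, 6.78, 3.97 and 3.57 (0.70, adjusted p = 0.108 in the fit over all genes). *RAB43* shares its exons with the read-through gene *ISY1-RAB43*, so its values (5.44, 11.8, 12.8 and 10.9) may be split between them. The other tested genes of this role, *RAB1A*, *RAB6A* and *RAB18*, had fold changes of −0.26 to 0.18, and *RAB6B*, *RAB30* and *RAB33B*, under the filter, of −0.53 to 0.06.

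Of 8 early endosome RABs 6 were tested and none was called, beside 7.09% of all tested genes called. The paralogs of the RAB5 trio, which govern early endosome fusion, lay on different sides. *RAB5A* had 28.8, 31.8, 52.5 and 44.4 (−0.66, 95% interval −1.10 to −0.21, adjusted p = 0.0796), and *RAB5C* had 154, 118, 100.3 and 94.6 (0.47, −0.07 to 1.00, adjusted p = 0.195). Neither passed, and *RAB5B* was at −0.05. The intervals of *RAB5A* and *RAB5C* did not overlap, and the ratio of *RAB5C* to *RAB5A* was 5.35 and 3.72 in edited against 1.91 and 2.13 in wild-type cells. The ratio was not tested, and the intervals are not adjusted for the number of genes. *RAB17*, an epithelial RAB of polarised endocytic traffic, was near the bottom of the range at 1.66, 1.30, 5.07 and 2.42 (−0.88, adjusted p = 0.173 in the fit over all genes), and *RAB20* at 2.59, 2.84, 5.53 and 4.86 (−0.74, adjusted p = 0.109). Both were lower in both edited libraries without passing, while 61.6% of all genes had groups that did not overlap. *RAB31*, which acts between the trans-Golgi network and endosomes, varied widely between replicates at 12.2, 34.0, 25.1 and 13.2. *RAB21*, an endosomal RAB of integrin traffic, was at −0.08.

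Of 8 recycling endosome RABs 7 were tested, and *RAB25* was the only one called, beside 7.09% of all tested genes called. *RAB14*, which acts between the Golgi and endosomes, was at 68.9, 69.6, 92.3 and 89.7 (−0.39, adjusted p = 0.185), and *RAB35*, a fast recycling RAB, at 44.3, 49.0, 36.2 and 32.5 (0.43, adjusted p = 0.152). Each had groups that did not overlap, as had 61.6% of all genes. *RAB4A* (133, 136, 160 and 135) overlapped between the groups. *RAB4B*, whose exons also belong to the read-through genes *MIA-RAB4B* and *RAB4B-EGLN2*, was at −0.26, and *RAB15*, under the filter, at −0.25. Annotated antisense genes overlap *RAB4A*, *RAB5C*, *RAB11B*, *RAB12* and *RAB33B*, and reads of the 2 strands cannot be told apart with this kit.

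All 5 late endosome, lysosome and autophagy RABs were tested. None was called, beside 7.09% of all tested genes called, and all 5 had negative fold changes, from −1.73 to −0.02. *RAB7B*, which acts between endosomes and the trans-Golgi network, had 9.52, 6.84, 16.8 and 49.8 (−1.73, 95% interval −2.98 to −0.48, adjusted p = 0.0868). Its wild-type replicates differed 2.96-fold and *SLC26A9-AS1* overlaps it. *RAB12*, which has a part in receptor degradation, had 24.8, 22.9, 35.0 and 37.2 (−0.58, adjusted p = 0.0838). *RAB9A*, which returns receptors from endosomes to the Golgi, and *RAB24*, an autophagy RAB, were each at −0.26. In the group of lysosome-related organelles, *RAB29*, a relative of *RAB32* and *RAB38*, was at 25.0, 28.0, 43.1 and 36.8 (−0.57, adjusted p = 0.0970).

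Of 9 exocytosis and polarised secretion RABs 7 were tested and none was called, beside 7.09% of all tested genes called. *RAB3D*, a secretory granule RAB, had 12.2, 12.1, 18.0 and 19.6 (−0.59, adjusted p = 0.104). *RAB26*, another secretory granule RAB, was low in edited replicate 2 alone, at 23.1, 8.24, 22.8 and 28.2 (−0.82, adjusted p = 0.266), and without edited replicate 1 it passed (−1.51, adjusted p = 0.0274). *RAB8A*, which delivers cargo to the cell surface and the cilium, was at 110, 92.6, 74.4 and 78.9 (0.40, adjusted p = 0.212), and *RAB13*, a tight junction RAB, overlapped at 132, 215, 220 and 157. *RAB10*, *RAB8B* and, under the filter, *RAB3A* were at 0.01, 0.04 and −0.46, and their groups overlapped as well. Among 3 cilium RABs, *RAB34*, which acts in ciliogenesis, was the only one tested, at 258, 226, 169 and 129 (0.71, 95% interval 0.14 to 1.27, adjusted p = 0.102). It was higher in both edited libraries without passing, while 61.6% of all genes had groups that did not overlap. *RAB23* and *RAB28*, under the filter, were at −0.01 and 0.08. The RAB40 genes, which act as substrate adaptors of ubiquitin ligases, were at −0.42 for *RAB40C*, 0.29 for *RAB40B* and, under the filter, 0.15 for *RAB40A*, and none was called.

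**Figure D4:**
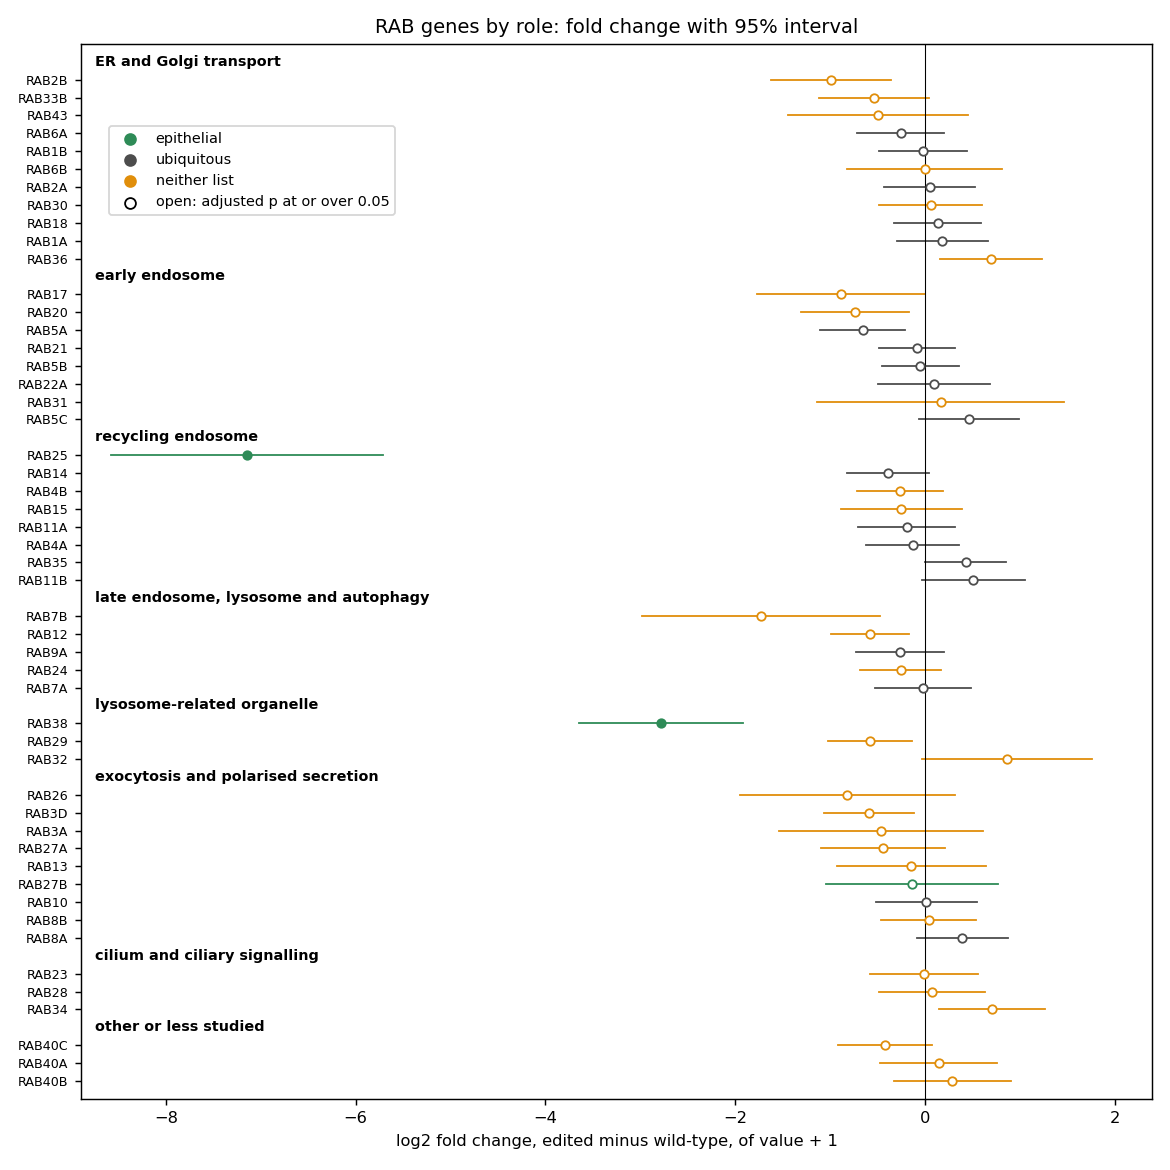
Log2 fold change of value + 1, edited minus wild-type, with its 95% interval for the 50 RAB genes, grouped by role and coloured by list, with filled points for genes called at an adjusted p below 0.05. The filled points are *RAB25* at −7.15 and *RAB38* at −2.78, and every other point is open and lies between −1.73 and 0.87.

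Over the 50 RAB genes, 20 had all edited values below all wild-type values and 10 the reverse. Groups that do not overlap were found in 61.6% of all genes, so 30 of 50 is near the background. The median fold change of the 38 tested RAB genes was −0.14 beside 0.09 over all tested genes. The 28 RAB genes in neither list had 17 tested, 0 called in limma and 6 at an unadjusted p below 0.05 (32.3% of all tested genes), with a median of −0.42, 12 negative and 5 positive. The summed level of the 50 genes was 3211, 3204, 3821 and 3478, or 0.194%, 0.194%, 0.238% and 0.241% of the library total. Without *RAB25* the sums were 3206, 3204, 3344 and 3105, and the groups overlapped. The median gap between replicates was 1.14-fold in edited and 1.15-fold in wild-type cells, and 5 and 3 RAB genes exceeded 2-fold.

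The genes that act on or with RABs were taken from 98 listed genes, of which 90 were measured and 67 tested. Of these 3 were called higher and 4 lower, beside 7.09% of all tested genes called in either direction. At an unadjusted p below 0.05 there were 21 of the 67, near the 32.3% of all tested genes. Their median fold change was −0.15. None of 5 tested genes of the prenylation and GDP dissociation machinery was called in limma, with 1 at an unadjusted p below 0.05, and none of 18 tested GTPase-activating proteins, with 5 at that level, again beside 32.3% of all tested genes.

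RAB27 effectors differed among themselves. Of 10 listed 6 were measured and 5 tested, of which 1 was called higher and 1 lower. Over all tested genes 7.09% were called in either direction. All 5 tested were at an unadjusted p below 0.05 in limma, beside 32.3% of all tested genes. *MLPH*, melanophilin, which links RAB27A to myosin Va, rose from 24.1 and 23.9 in wild-type to 109 and 193 in edited libraries. This was 6.28-fold, at 151 ± 59.5 against 24.0 ± 0.144 (SD, n = 2), with a log2 fold change of 2.54 (95% interval 1.81 to 3.28, adjusted p = 0.0157 in limma). *UNC13D*, the vesicle priming factor Munc13-4, fell from 46.0 and 40.9 to 14.3 and 18.8 (−1.35, −1.85 to −0.85, adjusted p = 0.0264). The synaptotagmin-like tethers did not pass the test. *SYTL1* had 68.2, 48.3, 99.8 and 133 (−0.995, adjusted p = 0.0728), and *SYTL4* 5.57, 7.73, 16.1 and 13.5 (−1.05, adjusted p = 0.0718). *SYTL2* was at −1.30 (adjusted p = 0.119) and *SYTL3*, under the filter, at −0.78 (adjusted p = 0.126). In each of these 4 both edited values were below both wild-type values, while 61.6% of all genes had groups that did not overlap.

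Of 8 listed RAB11 and RAB25 effectors 7 were measured, 5 tested and 1 called, beside 7.09% of all tested genes called. At an unadjusted p below 0.05 in limma there was 1 of the 5, beside 32.3% of all tested genes. *RAB11FIP3*, which carries RAB11 vesicles toward the centrosome and the cleavage furrow, rose from 20.4 and 12.3 to 38.1 and 43.1 (1.30, 95% interval 0.63 to 1.96, adjusted p = 0.0491), just inside the threshold. *RAB11FIP1*, a recycling endosome effector of RAB25 as well as RAB11, had 13.3, 11.7, 12.5 and 10.8 (0.09, −0.46 to 0.64, adjusted p = 0.800). *RAB11FIP2* at 0.26, *RAB11FIP5* at 0.11 and *MYO5A*, a myosin motor, at −0.11 did not pass either. *MYO5B*, the motor of apical recycling in epithelia, had 5.31, 3.78, 16.9 and 9.99 (−1.35, adjusted p = 0.0724 in the fit over all genes), and *RAB11FIP4* was at −1.09 (adjusted p = 0.0758). Both were lower in both edited libraries without passing, while 61.6% of all genes had groups that did not overlap.

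**Figure D5:**
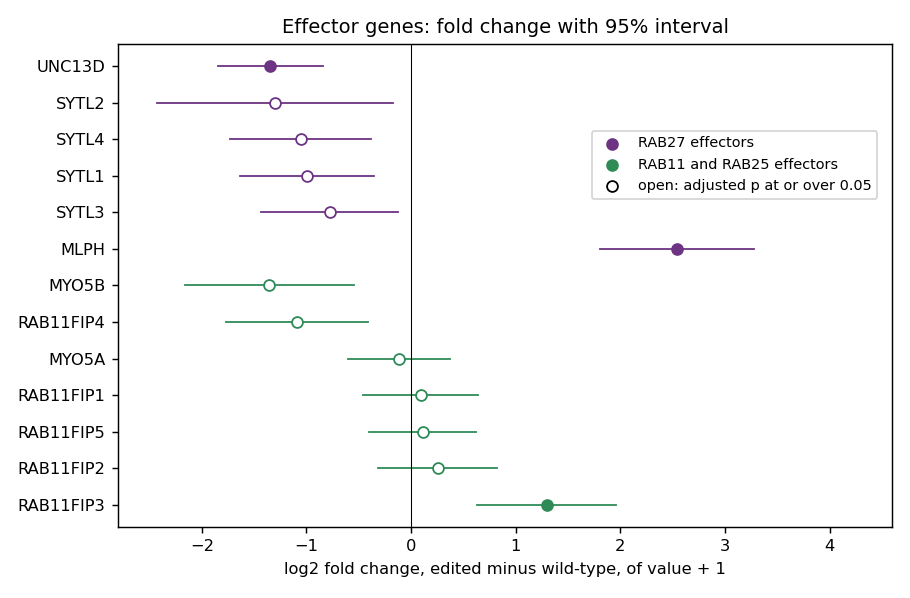
Log2 fold change of value + 1, edited minus wild-type, with its 95% interval for the effectors of RAB27 (purple) and of RAB11 and RAB25 (green), with filled points for genes called at an adjusted p below 0.05. *MLPH* at 2.54 stands opposite *UNC13D* at −1.35, and *RAB11FIP3* at 1.30 is the filled point of the RAB11 and RAB25 effectors.

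Among exchange factors 18 of 26 measured were tested, of which 1 was called higher and 2 lower. Over all tested genes 7.09% were called in either direction. *MON1A*, part of the RAB7 exchange factor, rose from 10.7 and 9.97 to 21.8 and 21.0 (0.98, adjusted p = 0.0449), beside a fold change of −0.02 for *RAB7A*. *RAB3IP*, the RAB8 exchange factor Rabin8, fell from 29.8 and 38.8 to 16.4 and 15.5 (−1.05, adjusted p = 0.0430), beside 0.40 for *RAB8A* and 0.04 for *RAB8B*. *DENND3*, a RAB12 exchange factor, fell from 46.5 and 52.8 to 9.62 and 19.3 (−1.78, adjusted p = 0.0403), beside −0.58 for *RAB12*. In none of these was the partner RAB called. In the fit over all genes 2 of the 23 partner genes under the filter were called, both exchange factors of the DENN family. *DENND2D* fell from 11.2 and 13.1 to 2.21 and 1.22 (−2.29, adjusted p = 0.0263), and *DENND1C*, whose edited values were 1.50 and 1.48, to a fold change of −2.79 (adjusted p = 0.0104). In that fit 4 of the 7 partner genes called among tested genes did not pass, *RAB11FIP3* (adjusted p = 0.0625), *RAB3IP* (0.0558), *DENND3* (0.0522) and *MON1A* (0.0512), so that 5 of the 90 measured were called beside 4.73% of all genes. Of 13 other effectors tested 1 was called lower, beside 4.20% of all tested genes called lower. This was *BICD2*, a dynein adaptor that binds RAB6, from 52.3 and 65.4 to 22.9 and 23.5 (−1.30, adjusted p = 0.0251), beside −0.26 for *RAB6A*.

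All 12 mammary epithelial markers were measured and tested, and 5 were called, beside 7.09% of all tested genes. *KRT8*, a luminal keratin, rose (1.01, adjusted p = 0.0449), and 4 fell, namely *CDH1* or E-cadherin (−5.28, adjusted p = 0.00328), *TP63* (−2.65, adjusted p = 0.0284), *KRT17* (−2.37, adjusted p = 0.0491) and *EPCAM* (−2.31, adjusted p = 0.0411). Of the 7 not called, *KRT14* was at −3.08 (adjusted p = 0.0512 in limma), *KRT18* at 0.89 and *KRT7* at 0.56. Over the 12 markers 9 fold changes were negative and 3 positive. The summed level of the 12 was 9093 and 11152 in edited and 16664 and 24242 in wild-type libraries. Of 10 stromal markers 3 were measured, with sums of 30.5, 225, 78.0 and 52.3, which overlapped between the groups. *COL1A1* fell (−2.06, adjusted p = 0.0420), *DCN* was at 15.1, 105, 7.42 and 1.09 (3.30, adjusted p = 0.0974) and *FAP* at 12.2, 114, 55.0 and 23.1 (0.08, adjusted p = 0.961). Of 8 blood and endothelial markers only *CD14* was measured, at 8.98 to 15.1, and the others were not analysed here. The part of these markers in the levels of *RAB25* and *RAB38* was not tested. In bulk RNA, fewer cells making a gene and less of its RNA per cell cannot be told apart.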

How the data were processed

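Poly(A) RNA of edited and wild-type MCF12A cells was sequenced in 2 libraries each as single-end reads with a TruSeq RNA kit. The authors deposited 1 table of 16811 gene symbols with an expression signal per library, whose totals were 1444640 to 1655440. The submitters' processing notes name Salmon, HISAT2 and hg38. The normalization is not given in the sources used here. Of low genes with a single annotated transcript, 46 of 180 had values in every library that were whole multiples (within 0.08) of a common step after multiplying by transcript length, and 21 of 404 without it, so the signal was read as scaled for length. Reads were not recovered for nearly all genes, and tests for counts and counting intervals were not used. Reads quoted for *RAB25* are approximate. They rest on a step of 0.1013 in edited replicate 1. Another search, also after multiplying by length, gave a step of 0.0504 there, which would give more reads.

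Groups came from the genotype labels. Values were compared on log2(value + 1) with limma 3.58.1 in R 4.3.3 (lmFit, eBayes with trend, no replicate block), with p-values adjusted by Benjamini and Hochberg over the 9590 genes averaging 10 or more, at a threshold of 0.05. Genes under that mean were read from the same fit over all genes. A log2(value + 1) fold change understates low genes. The fit was also run on simulated libraries, in which spreads were shuffled over genes, so the variance trend was not checked. Fold changes are edited minus wild-type. Alternatives were other pseudocounts, filters, scalings, a replicate block, no variance trend, each library left out, and the threshold of 0.001 that the study used for RNA-seq.

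The members, roles and gene lists were chosen with earlier results of these data known. Named genes were all RAB genes, RAB27 and RAB11 effectors, called partner genes (at most 8, largest changes first) and markers with their lists. *MON1A*, the ninth in size, and the promoters shown were picked after their values were seen. RefSeq positions were found for all 50 RAB genes, and 612 of the 9590 tested genes had no RefSeq chromosome. Promoter statistics and plots were made in Python 3.11.15.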

Additional observations from a re-analysis of the deposited data

How the results depend on the processing

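*RAB25* and *RAB38* were called under every alternative tried except a wild-type replicate left out, a mean of at least 50 (which drops *RAB38*) and the 0.001 threshold. The number of RAB genes called, 2, became 1 with a mean of at least 50, 0 at 0.001, and 0 to 3 with a library left out. Partner genes called, 7, became 2 with a mean of at least 50, 0 at 0.001 and 0 to 12 with a library left out. With a library left out, *RAB25* ran from −8.06 to −6.23, *RAB38* from −3.16 to −2.41 and *RAB27B* from −0.56 to 0.30. Under quantile normalization *RAB27B* was at 0.017. The ubiquitous median was −0.14 with equal totals and −0.13 with quantile normalization. The median of the tested epithelial genes, −4.96, was −5.44 and −4.00 with pseudocounts of 0.1 and 5, −2.78 with no filter (3 genes), −7.15 with a mean of at least 50 (*RAB25* alone) and −4.65 with quantile normalization.

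The replicate numbers share only a number, and the correlation of same-numbered deviations over genes was −0.138. With the replicate block 133 genes, 2 RAB genes and 0 partner genes were called. With the crossed pairing, added after seeing the data, 1002, 3 and 11 were. Without wild-type replicate 1 or 2, 16 and 4 of all genes were called, and without edited replicate 1 or 2, 486 and 1559, so the calls depend on which library is left out. The cause was not tested.

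Besides *RAB27B*, fold changes of 14 RAB genes, none of them called, turned sign under some alternatives, *RAB43* and *RAB3A* from −0.49 and −0.46. With equal library totals the fold changes were *RAB10* −0.10, *RAB8B* −0.072, *RAB2A* −0.069, *RAB30* −0.045, *RAB28* −0.029 and *RAB22A* −0.013. With quantile normalization they were *RAB23* 0.16, *RAB6B* 0.13, *RAB10* −0.14 and *RAB2A* −0.13. With a pseudocount of 5 *RAB6B* was at 0.0042. With a library left out the ranges were *RAB3A* −1.03 to 0.11, *RAB13* −0.49 to 0.21, *RAB7A* −0.12 to 0.078, *RAB1B* −0.061 to 0.024, *RAB23* −0.16 to 0.14, *RAB6B* −0.35 to 0.35, *RAB10* −0.14 to 0.17, *RAB8B* −0.0094 to 0.089, *RAB2A* −0.029 to 0.13, *RAB30* −0.037 to 0.16, *RAB28* −0.061 to 0.21 and *RAB31* −0.54 to 0.87. Without edited replicate 1 *RAB43* was at 0.0021. The depth could not be recovered for most genes, which limits the low RAB genes.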
